A study of Mus musculus with 9 samples.

Results

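The genes described here encode the enzymes that carry pyruvate into the mitochondrion, turn it into acetyl-CoA, run the tricarboxylic acid (TCA) cycle, refill it, and move reducing equivalents between cytosol and mitochondrion through the malate-aspartate shuttle. They were taken by symbol from a named list of 33 genes, and all 33 were found among 22036 annotated genes of the count table. All 33 passed the filter on low counts that left 14160 genes for testing, and the lowest count of any of them in any library was 44 reads (Pdk3). Bulk mRNA sequencing was done on heart tissue of the left ventricle from wild-type mice in 3 groups of 3 biological replicates. The HFD+AAV-BCKDK mice received the diet labelled HFD, taken here to be a high-fat diet, and an adeno-associated virus (AAV) vector named for BCKDK, the mitochondrial kinase that shuts off branched-chain ketoacid breakdown. The HFD+AAV-CON mice received the same diet and a control AAV vector, and the ND+AAV-CON mice received that control vector and the diet labelled ND. Every group thus carried an AAV vector, and no group combined the BCKDK vector with the ND diet, so in HFD+AAV-BCKDK against ND+AAV-CON the diet and the vector cannot be told apart. Diet composition and duration, vector dose, promoter, sex and age are not stated in the labels.

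The cycle starts when citrate synthase joins acetyl-CoA to oxaloacetate, and it returns to oxaloacetate while handing electrons to NAD+ and to the respiratory chain. Pyruvate feeds it through the pyruvate dehydrogenase complex, which pyruvate dehydrogenase kinases switch off by phosphorylation and the matching phosphatases switch back on. The working heart covers most of its energy need in mitochondria and shifts between fatty acids, glucose and lactate as fuel, so its muscle cells are rich in cycle enzymes. Since the inner membrane does not let NADH pass, the malate-aspartate shuttle carries its electrons inward with malate dehydrogenases and aspartate transaminases on both sides of the membrane.

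Annotated genes received between 32803233 and 45483044 reads per library, and the common biological coefficient of variation was 18.6%. Levels are given as CPM, the usual per-library normalised read count (counts scaled to a fixed total with TMM factors). Differences are log2 fold changes with their standard error (SE) and Benjamini-Hochberg adjusted p over all 14160 genes, from edgeR's quasi-likelihood test, and a gene is called at an adjusted p under 0.05. HFD+AAV-CON replicate 3 stood apart before any result was drawn. Unnamed loci took 1.02% of its reads, against 4.75% to 6.02% in the other 8 libraries, and 612 such loci had reads in it alone, against 39 to 211 in each of the others. Its value lay between those of the other 2 HFD+AAV-CON libraries for 64.1% of all genes tested and for all 33 genes described here, where the other libraries lay between their own group's other 2 for 14.8% to 37.1% of genes. Replicate counts differed by more than sampling noise in every pair (the lowest chi-square per degree of freedom was 14.9). Among the HFD+AAV-CON pairs it was 261 for replicates 1 and 2, 63.6 for 1 and 3 and 73.9 for 2 and 3. A library mixed from the other 2 would also differ from each of them, so these values cannot show that replicate 3 is independent. Whether it is was not tested. Each library was counted once, and results are given with and without HFD+AAV-CON replicate 3. Bckdk, the gene of the vector, was measured at 111, 126 and 119.9 CPM in the HFD+AAV-BCKDK hearts, 37.1, 64.98 and 49.4 CPM in the HFD+AAV-CON hearts and 78.6, 70.3 and 70.6 CPM in the ND+AAV-CON hearts. It was higher in every HFD+AAV-BCKDK library than in any other, and it rose by 1.24 against HFD+AAV-CON (SE 0.17, adjusted p = 0.00161). Its value in HFD+AAV-BCKDK against ND+AAV-CON, 0.70 (SE 0.17, adjusted p = 0.07), was not called. In HFD+AAV-CON against ND+AAV-CON it fell by 0.54 (SE 0.17, adjusted p = 0.03). Without HFD+AAV-CON replicate 3 this fall was -0.52 and was not called (adjusted p = 0.0852). The rise against HFD+AAV-CON stayed called without that library (1.24, adjusted p = 0.0101). Scaled to summed cardiomyocyte marker genes instead of by TMM, the value of Bckdk against ND+AAV-CON in HFD+AAV-CON turned to 0.14 (adjusted p = 0.285).

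The 33 genes moved largely together. In HFD+AAV-CON against ND+AAV-CON hearts, called the diet comparison below, 28 of the 33 fell and 1 rose, against 20.6% of all genes tested that fell and 22.7% that rose. Their median log2 fold change was -0.71, against -0.00179 over all genes tested. The 1 gene that rose was the kinase Pdk3, and Me1, Me2, Aco1 and Acly were not called. In 28 of the 33 every HFD+AAV-CON library lay under every ND+AAV-CON library, as it did for 27.1% of all genes tested. In HFD+AAV-BCKDK against HFD+AAV-CON hearts, called the vector comparison, 26 rose and 2 fell, against 17.3% of all genes tested that rose and 20.9% that fell. Their median was 0.65, against -0.01 over all genes tested, and in 27 the HFD+AAV-BCKDK libraries all lay above the HFD+AAV-CON libraries, as they did for 24% of all genes tested. Pdk3 and Me2 were the 2 that fell, and Pdhx, Pdp1, Idh1, Aco1 and Acly were not called. In HFD+AAV-BCKDK against ND+AAV-CON hearts 3 of the 33 fell, namely Pdp1, Pcx and Idh1, and none rose, against 1.27% and 1.18% of all genes tested. The first 2 comparisons share the HFD+AAV-CON libraries, so a swing of that group alone moves both in opposite directions.

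**Figure D1:**
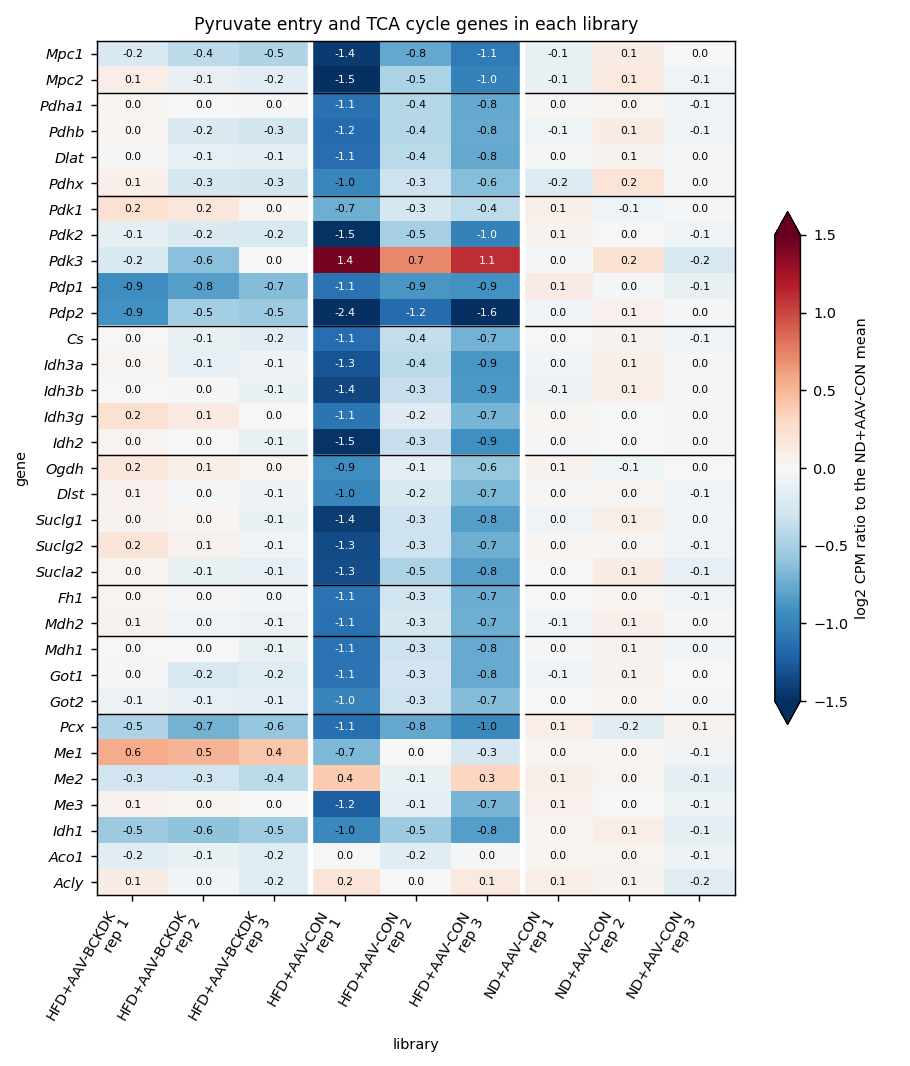
Log2 ratio of each gene's CPM in each library to the mean of the 3 ND+AAV-CON libraries, for 33 genes (vertical axis, with horizontal lines between roles) in 9 libraries (horizontal axis). Blue marks lower and red higher values, and colours saturate at 1.5. With TMM scaling, the HFD+AAV-CON columns are blue for most genes and palest in replicate 2, where Pdk3 is red in all 3 of them. Pdp1, Pdp2, Pcx and Idh1, and more weakly Mpc1, are blue in the HFD+AAV-BCKDK columns as well.

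In these genes the HFD+AAV-CON libraries differed among themselves more than those of the other groups did. The median within-group SD of log2 CPM over the 33 genes was 0.08 in HFD+AAV-BCKDK, 0.39 in HFD+AAV-CON and 0.07 in ND+AAV-CON, and over all genes tested it was 0.14, 0.18 and 0.13 in the same groups. HFD+AAV-CON replicate 1 was the lowest of its group in 29 of the 33 genes and replicate 2 the highest in 29. The median of the 33 genes relative to the ND+AAV-CON mean was -1.12 in replicate 1, -0.32 in replicate 2 and -0.75 in replicate 3 on the log2 scale. In the HFD+AAV-BCKDK libraries it lay between -0.13 and 0.03. Without HFD+AAV-CON replicate 3, 16 of the 33 fell in the first comparison, and 8 rose and 1 fell in the second. Of all 14325 genes tested without it, 1724 fell and 2326 rose in the first comparison, and 984 rose and 1863 fell in the second. The medians of the 33 genes without it were -0.70 and 0.65.

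Cardiomyocyte, endothelial and erythroid marker lists moved with these genes, and macrophage, fibroblast and T and NK cell lists moved the opposite way. Of 16 cardiomyocyte markers, 12 fell in HFD+AAV-CON against ND+AAV-CON and 10 rose in HFD+AAV-BCKDK against HFD+AAV-CON. Their summed level ran from 37720 to 41160 CPM in HFD+AAV-BCKDK, from 21110 to 34500 CPM in HFD+AAV-CON and from 42740 to 44600 CPM in ND+AAV-CON. Of 12 macrophage and monocyte markers, 11 rose in the first comparison and all 12 fell in the second, with sums of 559 to 735, 1980 to 3252 and 726 to 1005 CPM in the same groups. Of 12 fibroblast markers, 8 rose and 9 fell, with sums of 2385 to 2578, 3370 to 5773 and 2505 to 2601 CPM. The share of reads from mitochondrially encoded genes was 45.0% to 47.6% in HFD+AAV-BCKDK, 26.1% to 39.9% in HFD+AAV-CON and 42.1% to 45.7% in ND+AAV-CON. Of 11 endothelial markers, 8 fell in the first comparison and 9 rose in the second, with sums of 1730 to 1950 CPM in HFD+AAV-BCKDK, 1011 to 1478 CPM in HFD+AAV-CON and 1961 to 2054 CPM in ND+AAV-CON. Of 8 T and NK cell markers, 7 rose and 7 fell, with sums of 2.87 to 12.8, 95.2 to 172 and 2.699 to 37.75 CPM. Of 6 erythroid markers 5 were tested, and all 5 fell in the first comparison and rose in the second, with sums of 971 to 1567, 460.1 to 902 and 1479 to 1656 CPM. Of 8 pericyte and smooth muscle markers, 4 fell and 3 rose, and of 8 skeletal muscle markers, 4 were tested and 1 fell in each comparison. Of 11 adipocyte markers, 4 were tested, of which none was called in the first comparison and 2, Cidea and Cfd, rose in the second. Their sums were 23.6 to 35.1 CPM in HFD+AAV-BCKDK, 12.96 to 22.9 CPM in HFD+AAV-CON and 17.9 to 22.7 CPM in ND+AAV-CON, with every HFD+AAV-BCKDK library above every HFD+AAV-CON library, and Cidea made up most of them, where the defining Adipoq, Plin1 and Cidec had 1.34 CPM or less. The defining cardiomyocyte markers Myh6, Tnnt2, Tnni3 and Actc1 had 903 CPM or more in every library, and the atrial light chain Myl7, also on the list, had 0.328 CPM or less. Myl7 went against its list, at 0.79 in the first comparison (adjusted p = 0.624) and -5.97 in the second (adjusted p = 0.0752), and was called in neither. The part of the macrophage, fibroblast, endothelial, lymphocyte, erythroid, mural and adipocyte shifts in the results was not tested. In bulk tissue, fewer cardiomyocytes and less of these transcripts per cardiomyocyte cannot be told apart. Scaled to the summed cardiomyocyte markers instead of by TMM, the 33 genes had medians of -0.02 in HFD+AAV-CON against ND+AAV-CON and 0.11 with the vector, and that scaling moved the median of all genes tested to 0.74 and -0.62. Relative to all genes tested, the median of the 33 was -0.70 with TMM and -0.77 with marker scaling in the first comparison, and 0.66 and 0.73 in the second. A change of scaling shifts every gene by about the same amount, so these differences stay nearly fixed by construction. They cannot show whether a fall or rise outlasts marker scaling. With marker scaling 3 of the 33 fell (Mpc1, Pdk2 and Pdp2) and 5 rose in the first comparison, and 2 rose and 5 fell in the second, and the fold change of 9 genes called with TMM in the first and of 3 in the second turned its sign. Of all 14160 genes tested, 269 fell and 9056 rose in the first comparison with that scaling, and 188 rose and 7714 fell in the second. With total-count scaling, which moved the median of all genes tested to 0.40 and -0.47, 22 fell and 3 rose in the first comparison, and 14 rose and 4 fell in the second. Of all 14160 genes tested, 934 fell and 5985 rose in the first comparison with total-count scaling, and 398 rose and 6867 fell in the second.

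**Figure D2:**
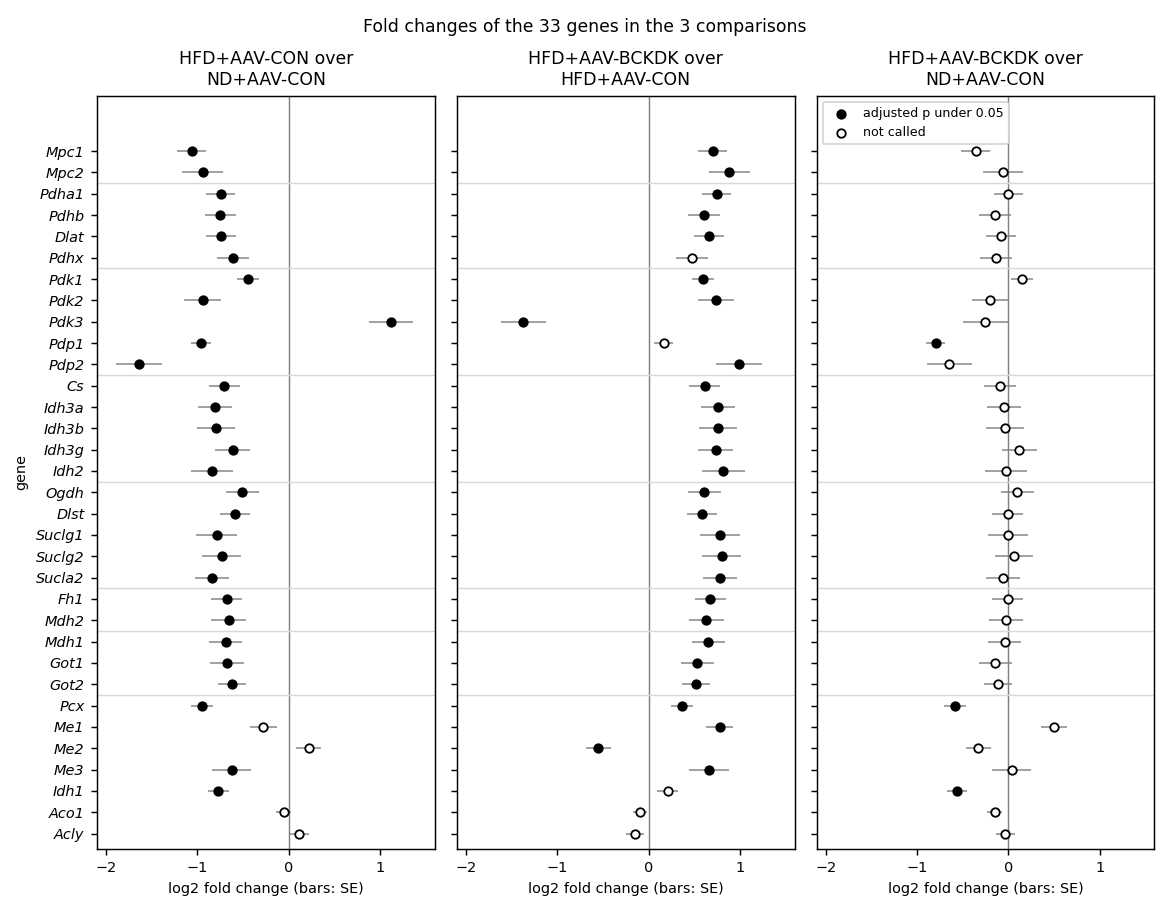
Log2 fold change of each of the 33 genes (vertical axis) with its SE as a bar, in HFD+AAV-CON over ND+AAV-CON, HFD+AAV-BCKDK over HFD+AAV-CON and HFD+AAV-BCKDK over ND+AAV-CON. Filled points were called at an adjusted p under 0.05 (28 lower and 1 higher, 26 higher and 2 lower, and 3 lower). These are TMM-scaled values, of which 9 called in the first panel and 3 in the second turned their sign with cardiomyocyte-marker scaling.

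Pyruvate enters the mitochondrion through a carrier made of Mpc1 and Mpc2, and both subunits fell under the HFD diet and rose with the BCKDK vector with no change of sign under any scaling, though with cardiomyocyte-marker scaling Mpc2 missed the threshold for the diet and Mpc1 for the vector. Mpc1 (ENSMUSG00000023861, mm10 chr17:8282904-8297661, plus strand) was measured at 371, 332 and 318 CPM in the HFD+AAV-BCKDK hearts, 162, 256 and 209 CPM in the HFD+AAV-CON hearts and 403, 471 and 432 CPM in the ND+AAV-CON hearts. All 3 groups were apart, with HFD+AAV-BCKDK between the others. It fell by 1.06 in HFD+AAV-CON against ND+AAV-CON (SE 0.16, adjusted p = 0.00128) and rose by 0.70 in HFD+AAV-BCKDK against HFD+AAV-CON (SE 0.16, adjusted p = 0.00951). The remaining difference of HFD+AAV-BCKDK to ND+AAV-CON, -0.36, was not called (adjusted p = 0.286). Mpc2 (ENSMUSG00000026568, mm10 chr1:165460637-165481214, plus strand) was measured at 334, 287 and 278 CPM in the HFD+AAV-BCKDK hearts, 108, 224 and 155 CPM in the HFD+AAV-CON hearts and 289, 346 and 301 CPM in the ND+AAV-CON hearts. The HFD+AAV-BCKDK and ND+AAV-CON libraries overlapped, and every HFD+AAV-CON library lay under both. Its log2 fold changes were -0.94 (SE 0.22, adjusted p = 0.00901) for HFD+AAV-CON over ND+AAV-CON and 0.89 (SE 0.22, adjusted p = 0.0151) for HFD+AAV-BCKDK over HFD+AAV-CON. When HFD+AAV-CON replicate 3 was left out the second of these missed the threshold (adjusted p = 0.0521), and the other 3 calls of the carrier were kept.

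The pyruvate dehydrogenase complex was lower in HFD+AAV-CON against ND+AAV-CON in all 4 subunits measured here, and 3 of the 4 rose with the vector. The exception to a stable sign was Pdhx, whose value for HFD+AAV-CON over ND+AAV-CON turned to 0.08 with cardiomyocyte-marker scaling (and its uncalled value for the vector to -0.08). Under that scaling the diet values of Pdha1 (-0.06), Pdhb (-0.06) and Dlat (-0.06) were close to 0 as well and were not called (adjusted p of 0.531, 0.605 and 0.595). The vector values of the same genes were 0.19, 0.05 and 0.11 under that scaling and were not called either (adjusted p of 0.0576, 0.676 and 0.321). Pdha1 (ENSMUSG00000031299, mm10 chrX:160122209-160138413, minus strand), the catalytic alpha subunit of the decarboxylase that the kinases phosphorylate, was measured at 1114, 1094 and 1066 CPM in the HFD+AAV-BCKDK hearts, 502, 809.5 and 639.9 CPM in the HFD+AAV-CON hearts and 1102, 1119 and 1053 CPM in the ND+AAV-CON hearts. The HFD+AAV-BCKDK and ND+AAV-CON means, 1091 ± 24.4 and 1091 ± 34.3 CPM (SD, n = 3 each), lay within each other's spread, and HFD+AAV-CON averaged 650.5 ± 154 CPM. It fell by 0.75 (SE 0.16, adjusted p = 0.00561) under the diet and rose by 0.75 (SE 0.16, adjusted p = 0.00766) with the vector. Pdhb (ENSMUSG00000021748, mm10 chr14:8165996-8173025, minus strand), the beta subunit of the same decarboxylase, was measured at 659.8, 556 and 534 CPM in the HFD+AAV-BCKDK hearts, 289, 480 and 381 CPM in the HFD+AAV-CON hearts and 618, 694 and 620.5 CPM in the ND+AAV-CON hearts. Its fold changes were -0.75 (SE 0.17, adjusted p = 0.00832) and 0.61 (SE 0.17, adjusted p = 0.0239) in the same comparisons. Dlat (ENSMUSG00000000168, mm10 chr9:50634633-50659780, minus strand), the acetyltransferase core, was measured at 363, 329 and 327 CPM in the HFD+AAV-BCKDK hearts, 162, 271 and 210.3 CPM in the HFD+AAV-CON hearts and 351, 373 and 353 CPM in the ND+AAV-CON hearts. Both of these genes had HFD+AAV-CON below the other groups with no overlap, at -0.74 (SE 0.16, adjusted p = 0.00613) and 0.66 (SE 0.16, adjusted p = 0.013) for Dlat. Pdhx, which anchors the last component of the complex to that core, ran from 111 to 142 CPM in HFD+AAV-BCKDK, 68.5 to 108 CPM in HFD+AAV-CON and 117 to 154 CPM in ND+AAV-CON, and was called for the diet (-0.62, adjusted p = 0.0198) and not for the vector (0.48, adjusted p = 0.0571). Leaving out HFD+AAV-CON replicate 3, the calls of Pdha1 and Dlat were kept in both comparisons, and those of Pdhx for the diet (adjusted p = 0.0627) and of Pdhb for the vector (adjusted p = 0.0672) were lost.

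The kinases and phosphatases that set the activity of this complex did not move as one. In HFD+AAV-CON against ND+AAV-CON, Pdk1, Pdk2, Pdp1 and Pdp2 fell and Pdk3 rose, where the value of Pdk1 turned to 0.26 with cardiomyocyte-marker scaling and the other 4 kept their sign, with Pdp1 at -0.23 and not called. Pdk2 (ENSMUSG00000038967, mm10 chr11:95026258-95041354, minus strand), a kinase made in most tissues, was measured at 292, 279 and 273 CPM in the HFD+AAV-BCKDK hearts, 116, 228 and 160.3 CPM in the HFD+AAV-CON hearts and 335, 324 and 312 CPM in the ND+AAV-CON hearts. Pdk3 (ENSMUSG00000035232, mm10 chrX:93764607-93832201, minus strand), a kinase best known from testis and brain, was measured at 2.05, 1.55 and 2.398 CPM in the HFD+AAV-BCKDK hearts, 6.495, 3.93 and 5.15 CPM in the HFD+AAV-CON hearts and 2.35, 2.81 and 2.02 CPM in the ND+AAV-CON hearts. The 2 kinases ran in opposite directions in the same libraries, with Pdk2 lowest and Pdk3 highest in HFD+AAV-CON replicate 1. Pdk2 changed by -0.94 (SE 0.20, adjusted p = 0.00551) under the diet and 0.74 (SE 0.20, adjusted p = 0.0185) with the vector. Pdk3 changed by 1.12 (SE 0.24, adjusted p = 0.00633) and -1.37 (SE 0.25, adjusted p = 0.00412), and it was the 1 gene of the 33 whose calls in both comparisons held under all 21 alternative settings that kept the threshold of 0.05. It had 44 to 405 reads per library. Pdk1, a kinase that hypoxia induces, ran from 130.5 to 149.5 CPM in HFD+AAV-BCKDK, 76.7 to 106 CPM in HFD+AAV-CON and 123 to 134 CPM in ND+AAV-CON, with fold changes of -0.45 (SE 0.12, adjusted p = 0.0152) and 0.59 (SE 0.12, adjusted p = 0.00638). Leaving out ND+AAV-CON replicate 1 ended the diet call of Pdk1. With cardiomyocyte-marker scaling the vector values of Pdk1 (0.02) and Pdk2 (0.21) were not called (adjusted p = 0.915 and 0.103).

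Both phosphatases fell under the diet, and with the vector Pdp2 was called and Pdp1 was not. Pdp1 (ENSMUSG00000049225, mm10 chr4:11958184-11966452, minus strand), the calcium-stimulated phosphatase of muscle, was measured at 19.2, 20.8 and 23.3 CPM in the HFD+AAV-BCKDK hearts, 17.1, 19.97 and 19.4 CPM in the HFD+AAV-CON hearts and 39.9, 36.01 and 33.99 CPM in the ND+AAV-CON hearts. The 2 HFD groups overlapped and both lay under ND+AAV-CON without overlap. It fell by 0.96 in HFD+AAV-CON against ND+AAV-CON (SE 0.10, adjusted p = 0.000526), and in HFD+AAV-BCKDK against HFD+AAV-CON its value was 0.17 and was not called (adjusted p = 0.233), with -0.28 under total-count and -0.42 under cardiomyocyte-marker scaling. Pdp2 (ENSMUSG00000048371, mm10 chr8:104591451-104599026, plus strand), the insulin-sensitive phosphatase, was measured at 12.4, 16.3 and 15.9 CPM in the HFD+AAV-BCKDK hearts, 4.49, 10.4 and 7.65 CPM in the HFD+AAV-CON hearts and 22.6, 24.4 and 22.9 CPM in the ND+AAV-CON hearts. All 3 groups were apart and HFD+AAV-BCKDK lay between the others. It fell by 1.64 (SE 0.25, adjusted p = 0.0015), the largest fall among the 33 genes, and rose by 0.99 (SE 0.25, adjusted p = 0.0154), the largest rise. The vector call of Pdp2 was lost without HFD+AAV-BCKDK replicate 2 (adjusted p = 0.0515) and with cardiomyocyte-marker scaling (0.47, adjusted p = 0.0546). With HFD+AAV-CON replicate 3 left out, the calls for Pdk1 and Pdk3 in both comparisons, for Pdp1 under the diet and for Pdp2 in both were kept, and that of Pdk2 for the vector was lost (adjusted p = 0.0606).

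Promoter windows, 250 bases before to 50 bases after the annotated start, were taken from RefSeq (GRCm38.p6, the build of mm10) for 30 of the 33 genes, with 41 windows in all. They are shown for the pair of kinases that ran in opposite directions and for the 2 genes with a motif match. The exact motifs TCAAGGTCA, bound by estrogen-related receptors, GCGCATGCG, bound by NRF1, and CCGGAAGT, bound by ETS factors such as GABPA, were searched on both strands. All are known from promoters of mitochondrial genes, and no window held more than 1 of them. The first was in none of the 41 windows and in 0.423% of 32851 windows genome-wide. The NRF1 motif was in 2 windows, which overlap each other and belong to Ogdh, and in 1.75% genome-wide, and the ETS motif in 1 window, that of Dlst, and in 3.89% genome-wide. These matches describe letters only. The capitals mark the NRF1 motif on the plus strand of the Ogdh window, 15 bases before the start, and the ETS motif on the opposite strand at the Dlst start. No capitals stand in the other windows.
Pdk2 promoter, chr11:95041322-95041621, minus strand: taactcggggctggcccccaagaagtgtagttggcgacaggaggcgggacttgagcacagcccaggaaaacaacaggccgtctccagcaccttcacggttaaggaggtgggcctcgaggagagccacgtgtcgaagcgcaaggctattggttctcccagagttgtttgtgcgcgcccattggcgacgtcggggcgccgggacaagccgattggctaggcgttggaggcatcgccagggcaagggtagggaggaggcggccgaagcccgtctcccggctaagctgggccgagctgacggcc
Pdk3 promoter, chrX:93832101-93832400, minus strand: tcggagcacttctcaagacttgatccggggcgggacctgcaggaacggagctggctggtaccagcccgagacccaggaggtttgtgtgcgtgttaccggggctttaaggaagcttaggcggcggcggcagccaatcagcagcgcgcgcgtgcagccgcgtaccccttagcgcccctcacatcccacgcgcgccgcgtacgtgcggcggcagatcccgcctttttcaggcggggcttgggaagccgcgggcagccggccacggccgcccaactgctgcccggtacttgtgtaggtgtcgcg
Ogdh promoter, chr11:6292308-6292607, plus strand: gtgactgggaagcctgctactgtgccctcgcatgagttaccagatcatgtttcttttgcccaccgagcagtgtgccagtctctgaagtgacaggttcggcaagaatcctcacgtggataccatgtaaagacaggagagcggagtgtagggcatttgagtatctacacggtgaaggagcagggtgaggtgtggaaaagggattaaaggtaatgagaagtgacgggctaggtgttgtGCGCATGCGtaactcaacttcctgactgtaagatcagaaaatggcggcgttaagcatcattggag
Dlst promoter, chr12:85110583-85110882, plus strand: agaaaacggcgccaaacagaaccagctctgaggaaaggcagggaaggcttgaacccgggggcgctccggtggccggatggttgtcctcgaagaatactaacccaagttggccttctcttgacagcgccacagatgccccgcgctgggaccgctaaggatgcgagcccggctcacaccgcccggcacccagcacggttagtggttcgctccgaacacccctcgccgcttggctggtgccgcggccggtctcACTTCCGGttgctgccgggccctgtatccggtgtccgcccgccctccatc
The GC share was 64.7% in the Pdk2 window, 68% in the Pdk3 window, 50.3% in the Ogdh window and 65.7% in the Dlst window, against a median of 52.7% over all windows. They held 25, 35, 11 and 28 CpG dinucleotides in the same order, against a median of 7. Ogdh and Pdk2 have further windows that are not shown. Those of Ogdh ran from 49.3% to 72.3% GC and from 11 to 37 CpG, and that of Pdk2 had 57.7% and 13.

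**Figure D3:**
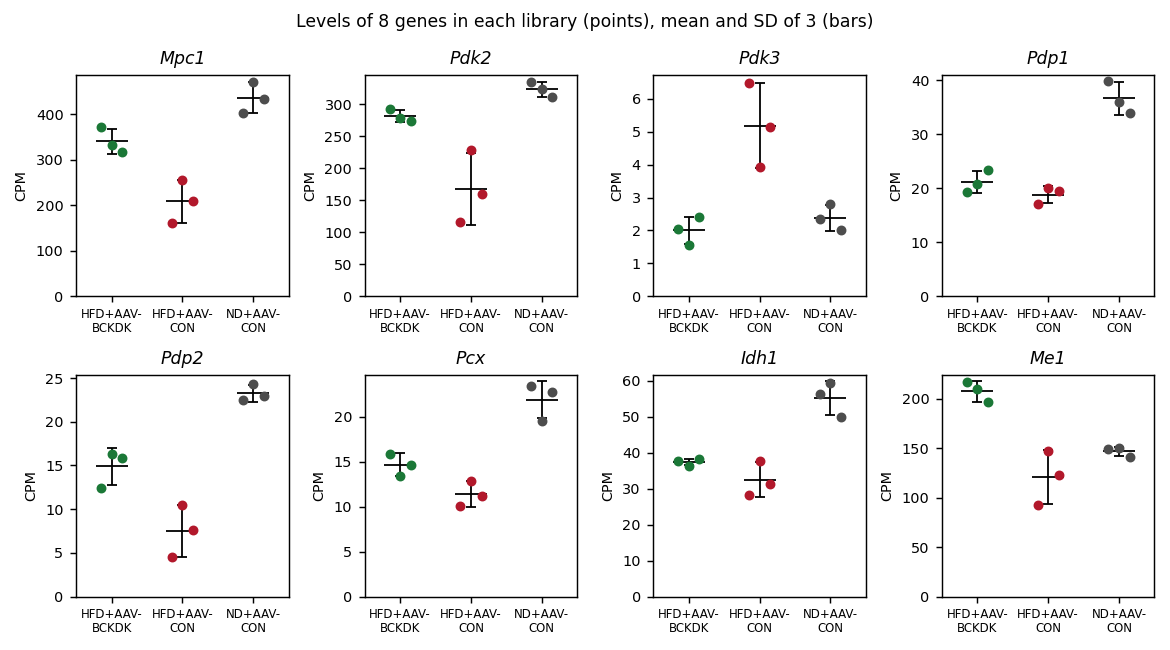
CPM (vertical axes, from 0) of Mpc1, Pdk2, Pdk3, Pdp1, Pdp2, Pcx, Idh1 and Me1 in each library (points) of HFD+AAV-BCKDK, HFD+AAV-CON and ND+AAV-CON, with the mean and SD of 3 libraries (bars). Values are TMM-scaled. Pdk3 is highest in HFD+AAV-CON, Pdp1 and Idh1 overlap between the 2 HFD groups and lie lower than in ND+AAV-CON, and Me1 is highest in HFD+AAV-BCKDK.

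The enzymes from citrate to 2-oxoglutarate fell in all 5 cases under the diet and rose in all 5 with the vector, with only Idh3g turning its sign for the diet (0.06) with cardiomyocyte-marker scaling, where none of the 5 was called for the diet. For the vector under that scaling, Cs (0.06), Idh3a (0.22), Idh3b (0.23) and Idh3g (0.19) were not called, at adjusted p of 0.519, 0.0695, 0.0707 and 0.109. Idh2 kept its vector call there. Cs (ENSMUSG00000005683, mm10 chr10:128337734-128362479, plus strand), citrate synthase, was measured at 1094, 1019 and 992 CPM in the HFD+AAV-BCKDK hearts, 499.8, 854 and 673 CPM in the HFD+AAV-CON hearts and 1108, 1141 and 1057 CPM in the ND+AAV-CON hearts. It fell by 0.71 in HFD+AAV-CON against ND+AAV-CON (SE 0.17, adjusted p = 0.0105) and rose by 0.61 in HFD+AAV-BCKDK against HFD+AAV-CON (SE 0.17, adjusted p = 0.0225). The 3 subunits of NAD-dependent isocitrate dehydrogenase moved alike. Idh3a (ENSMUSG00000032279, mm10 chr9:54586334-54604661, plus strand), the catalytic subunit, was measured at 606, 542 and 562 CPM in the HFD+AAV-BCKDK hearts, 241, 445 and 323 CPM in the HFD+AAV-CON hearts and 572, 621 and 578 CPM in the ND+AAV-CON hearts, with fold changes of -0.81 (SE 0.19, adjusted p = 0.0083) and 0.76 (SE 0.19, adjusted p = 0.0142). Idh3g (ENSMUSG00000002010, mm10 chrX:73778963-73786897, minus strand), the regulatory gamma subunit, was measured at 397, 368 and 339 CPM in the HFD+AAV-BCKDK hearts, 158, 296 and 209 CPM in the HFD+AAV-CON hearts and 346, 337 and 332 CPM in the ND+AAV-CON hearts, with fold changes of -0.62 (SE 0.19, adjusted p = 0.0272) and 0.73 (SE 0.19, adjusted p = 0.0168). The HFD+AAV-CON libraries lay below those of both other groups in each of these genes. Idh3b, the beta subunit, was called at -0.80 and 0.76, with 614 to 662 CPM in HFD+AAV-BCKDK, 256 to 518 CPM in HFD+AAV-CON and 624 to 702 CPM in ND+AAV-CON. Idh2, the mitochondrial enzyme that makes NADPH from isocitrate, was called at -0.84 and 0.82, with 1511 to 1674 CPM in HFD+AAV-BCKDK, 588 to 1283 CPM in HFD+AAV-CON and 1616 to 1653 CPM in ND+AAV-CON. After removal of HFD+AAV-CON replicate 3, Idh3a was called in both comparisons and Cs for the diet alone. The other calls of this step were lost, at adjusted p values of 0.0538 for Idh3b, 0.0874 for Idh3g and 0.0633 for Idh2 under the diet.

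From 2-oxoglutarate to succinate, all 5 genes fell under the diet and rose with the vector, where Ogdh (0.17) and Dlst (0.09) turned their sign for the diet with cardiomyocyte-marker scaling, where none of the 5 was called for the diet. None of the 5 was called for the vector under that scaling either, at adjusted p from 0.0646 (Sucla2) to 0.759 (Dlst). Dlst (ENSMUSG00000004789, mm10 chr12:85110833-85134845, plus strand), the succinyltransferase core of the 2-oxoglutarate dehydrogenase complex, was measured at 432, 405 and 391 CPM in the HFD+AAV-BCKDK hearts, 208, 353 and 259 CPM in the HFD+AAV-CON hearts and 418, 425 and 393 CPM in the ND+AAV-CON hearts. It changed by -0.59 (SE 0.17, adjusted p = 0.0185) and 0.58 (SE 0.17, adjusted p = 0.0236). The mean of HFD+AAV-BCKDK, 409.5 ± 21.01 CPM, and that of ND+AAV-CON, 412 ± 16.9 CPM (SD, n = 3 each), differed by less than their spread. Sucla2 (ENSMUSG00000022110, mm10 chr14:73525319-73596142, plus strand), the ADP-forming subunit of succinate-CoA ligase, was measured at 677, 616 and 602 CPM in the HFD+AAV-BCKDK hearts, 261, 472 and 371 CPM in the HFD+AAV-CON hearts and 659, 708 and 606 CPM in the ND+AAV-CON hearts, and changed by -0.84 (SE 0.19, adjusted p = 0.00718) and 0.78 (SE 0.19, adjusted p = 0.0127). Suclg2 (ENSMUSG00000061838, mm10 chr6:95473009-95718800, minus strand), its GDP-forming counterpart, was measured at 225, 207 and 189 CPM in the HFD+AAV-BCKDK hearts, 77.9, 160.2 and 119 CPM in the HFD+AAV-CON hearts and 203, 201 and 190.3 CPM in the ND+AAV-CON hearts, and changed by -0.74 (SE 0.21, adjusted p = 0.0202) and 0.80 (SE 0.21, adjusted p = 0.0179). In each of the 3 genes the HFD+AAV-CON libraries lay below all others. Ogdh, the decarboxylase of the complex, had the smallest fall of the 5 at -0.51 (SE 0.18, adjusted p = 0.0436) and rose by 0.61, and Suclg1, the alpha subunit shared by both ligases, changed by -0.79 and 0.78. Ogdh had 1397 to 1523 CPM in HFD+AAV-BCKDK, 711 to 1231 CPM in HFD+AAV-CON and 1299 to 1404 CPM in ND+AAV-CON, and Suclg1 had 336 to 372, 134 to 289 and 347 to 382 CPM in the same groups. The call of Ogdh for the diet missed the threshold in 12 of 21 alternative settings and its value turned sign in 1 more. Without HFD+AAV-CON replicate 3, Sucla2 was called in both comparisons and the other 4 genes in neither, with adjusted p values for the diet of 0.0671 for Dlst, 0.0632 for Suclg1, 0.0608 for Suclg2 and 0.123 for Ogdh.

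Fumarase and mitochondrial malate dehydrogenase, which close the cycle, both fell under the diet and rose with the vector, and the value of Mdh2 for the diet turned to 0.01 with cardiomyocyte-marker scaling, where neither gene was called for the diet. The vector values under that scaling, 0.13 for Fh1 and 0.09 for Mdh2, were not called either (adjusted p = 0.228 and 0.355). Fh1 (ENSMUSG00000026526, mm10 chr1:175600374-175625635, minus strand), fumarase, was measured at 368, 353 and 348 CPM in the HFD+AAV-BCKDK hearts, 165, 289 and 214 CPM in the HFD+AAV-CON hearts and 359, 369 and 344 CPM in the ND+AAV-CON hearts. The fall was 0.68 (SE 0.17, adjusted p = 0.0114) and the rise 0.68 (SE 0.17, adjusted p = 0.0151). Mdh2 (ENSMUSG00000019179, mm10 chr5:135778480-135790398, plus strand) was measured at 1174, 1093 and 1062 CPM in the HFD+AAV-BCKDK hearts, 521, 947 and 678 CPM in the HFD+AAV-CON hearts and 1088, 1193 and 1110 CPM in the ND+AAV-CON hearts. Its fall was 0.66 (SE 0.19, adjusted p = 0.0202) and its rise 0.63 (SE 0.19, adjusted p = 0.0276). The HFD+AAV-BCKDK and ND+AAV-CON libraries of both genes overlapped. The diet call of Fh1 was kept without HFD+AAV-CON replicate 3, and those of Fh1 for the vector (adjusted p = 0.0522) and of Mdh2 for the diet and the vector (adjusted p = 0.0707 and 0.0823) were lost.

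The cytosolic malate dehydrogenase and both aspartate transaminases of the shuttle fell under the diet and rose with the vector, where Got1 (0.00156 and -0.01) and Got2 (0.06 and -0.04) turned their signs in both comparisons with cardiomyocyte-marker scaling and Mdh1 was at -0.01 for the diet and not called. For the vector under that scaling Mdh1 was at 0.11 (adjusted p = 0.211), and neither it nor Got1 or Got2 was called. Mdh1 (ENSMUSG00000020321, mm10 chr11:21556787-21572367, minus strand), the cytosolic dehydrogenase, was measured at 1749, 1748 and 1625 CPM in the HFD+AAV-BCKDK hearts, 813, 1409 and 1034 CPM in the HFD+AAV-CON hearts and 1735, 1815 and 1707 CPM in the ND+AAV-CON hearts. Its fold changes were -0.69 (SE 0.18, adjusted p = 0.0138) and 0.65 (SE 0.18, adjusted p = 0.0211). Got1 (ENSMUSG00000025190, mm10 chr19:43499752-43524605, minus strand), the cytosolic transaminase, was measured at 671, 579.6 and 603 CPM in the HFD+AAV-BCKDK hearts, 316, 559.9 and 405 CPM in the HFD+AAV-CON hearts and 657, 709.5 and 679.8 CPM in the ND+AAV-CON hearts. Every HFD+AAV-CON library of Mdh1 and Got1 lay below all libraries of the other groups. Got1 changed by -0.68 (SE 0.18, adjusted p = 0.0155) and 0.53 (SE 0.18, adjusted p = 0.0434), the second of which became 0.80 without HFD+AAV-CON replicate 2. Got2 (ENSMUSG00000031672, mm10 chr8:95864134-95888547, minus strand), the mitochondrial transaminase, was measured at 590.5, 572 and 564 CPM in the HFD+AAV-BCKDK hearts, 309.8, 502 and 394 CPM in the HFD+AAV-CON hearts and 622, 634 and 606 CPM in the ND+AAV-CON hearts. It changed by -0.63 (SE 0.15, adjusted p = 0.0107) and 0.52 (SE 0.15, adjusted p = 0.0271), and its HFD+AAV-BCKDK libraries lay just under those of ND+AAV-CON with no call (adjusted p = 0.788). When HFD+AAV-CON replicate 3 was removed only the call of Got2 for the diet was kept among the 6 calls of this step, and the 3 for the vector had adjusted p values of 0.0679 for Mdh1, 0.113 for Got1 and 0.0759 for Got2. The call of Got1 for the vector missed the threshold in 12 of 21 alternative settings and its value turned sign in 1 more.

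The enzymes that refill the cycle, export its citrate or make NADPH had the most mixed calls. Of 7 such genes, Pcx, Me3 and Idh1 fell under the diet and none rose, where with cardiomyocyte-marker scaling Me3 turned to 0.03 and Pcx (-0.23) and Idh1 (-0.06) were not called, and with the vector Pcx, Me1 and Me3 rose and Me2 fell, where Pcx turned to -0.07 with total-count and -0.22 with cardiomyocyte-marker scaling. Pcx (ENSMUSG00000024892, mm10 chr19:4510472-4621752, plus strand), pyruvate carboxylase, which makes oxaloacetate from pyruvate, was measured at 15.9, 13.4 and 14.7 CPM in the HFD+AAV-BCKDK hearts, 10.04, 12.9 and 11.2 CPM in the HFD+AAV-CON hearts and 23.4, 19.6 and 22.8 CPM in the ND+AAV-CON hearts. All 3 groups were apart, with HFD+AAV-BCKDK close above HFD+AAV-CON. It fell by 0.95 (SE 0.12, adjusted p = 0.000775) and rose by 0.37 (SE 0.12, adjusted p = 0.0383). The call of Pcx for the vector missed the threshold in 10 of 21 alternative settings and its value turned sign in 2 more. Idh1 (ENSMUSG00000025950, mm10 chr1:65158616-65186500, minus strand), the cytosolic and peroxisomal NADPH-making isocitrate dehydrogenase, was measured at 37.8, 36.3 and 38.1 CPM in the HFD+AAV-BCKDK hearts, 28.3, 37.8 and 31.1 CPM in the HFD+AAV-CON hearts and 56.4, 59.3 and 50.02 CPM in the ND+AAV-CON hearts. The 2 HFD groups overlapped below ND+AAV-CON. It fell by 0.77 (SE 0.11, adjusted p = 0.00117), and its value for the vector was 0.21 and was not called (adjusted p = 0.164), with -0.23 under total-count and -0.37 under cardiomyocyte-marker scaling.

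The malic enzymes, which turn malate into pyruvate, were called in both directions with the vector. Me1 (ENSMUSG00000032418, mm10 chr9:86581371-86695953, minus strand), the cytosolic NADP-dependent form, was measured at 217, 209.8 and 196 CPM in the HFD+AAV-BCKDK hearts, 92.4, 147 and 123 CPM in the HFD+AAV-CON hearts and 149.5, 149.8 and 141 CPM in the ND+AAV-CON hearts. Its HFD+AAV-BCKDK libraries were above all others. It rose by 0.78 with the vector (SE 0.15, adjusted p = 0.00478), and its value for the diet, -0.28, was not called (adjusted p = 0.145) and turned to 0.09 under total-count and 0.41 under cardiomyocyte-marker scaling. Under cardiomyocyte-marker scaling this diet value was called (adjusted p = 0.00512), and the vector value of Me1 was 0.22 and was not called (adjusted p = 0.0814). Me2 (ENSMUSG00000024556, mm10 chr18:73769903-73815449, minus strand), the mitochondrial NAD-dependent form, was measured at 7.78, 7.71 and 7.19 CPM in the HFD+AAV-BCKDK hearts, 12.4, 8.88 and 11.8 CPM in the HFD+AAV-CON hearts and 10.1, 9.77 and 8.66 CPM in the ND+AAV-CON hearts. Here HFD+AAV-BCKDK was lowest, and the HFD+AAV-CON and ND+AAV-CON libraries overlapped. It fell by 0.55 with the vector (SE 0.14, adjusted p = 0.015), and its value for the diet, 0.22, was not called (adjusted p = 0.216). The diet value of Me2 was called higher with total-count scaling (0.65, adjusted p = 0.0285), with cardiomyocyte-marker scaling (1, adjusted p = 0.00702) and without HFD+AAV-CON replicate 2 (0.35, adjusted p = 0.0271), and leaving out HFD+AAV-CON replicate 1 ended its vector call (adjusted p = 0.0614). Me3, the mitochondrial NADP-dependent form, had 68.1 to 70.8 CPM in HFD+AAV-BCKDK, 28.8 to 61.6 CPM in HFD+AAV-CON and 64.2 to 71.04 CPM in ND+AAV-CON and changed by -0.62 (SE 0.21, adjusted p = 0.0412) and 0.66 (SE 0.22, adjusted p = 0.0374), and without HFD+AAV-CON replicate 2 these became -0.95 and 1. Without HFD+AAV-CON replicate 1 the value of Me3 for the diet was -0.40 (adjusted p = 0.0596). The call of Me3 missed the threshold in 11 of 21 alternative settings in each of the 2 comparisons, and its diet value turned sign in 1 more. Acly, which splits exported citrate into acetyl-CoA for lipid synthesis, and Aco1, the cytosolic aconitase that also acts as an iron sensor, were called in no comparison with TMM scaling. Acly was called for the diet and the vector with total-count scaling (0.53, adjusted p = 0.0187, and -0.62, adjusted p = 0.00989) and with cardiomyocyte-marker scaling (0.88 and -0.78). Aco1 was called for the vector with both (-0.56 and -0.72) and for the diet with cardiomyocyte-marker scaling (0.70). These 2 scalings shifted most genes the same way as these calls. With marker scaling the medians of all 14160 genes tested were 0.74 for the diet and -0.62 for the vector, where 9056 rose and 7714 fell. With total-count scaling they were 0.40 and -0.47, where 5985 rose and 6867 fell. The calls under these scalings are thus not particular to Me1, Me2, Acly or Aco1. Acly ran from 31.2 to 38.2 CPM in HFD+AAV-BCKDK, 35.5 to 40.4 CPM in HFD+AAV-CON and 31.7 to 37.8 CPM in ND+AAV-CON, and Aco1 from 22.1 to 23.4, 22.3 to 25.3 and 23.8 to 25.9 CPM. In fits that left out HFD+AAV-CON replicate 3, the calls of Pcx and Idh1 for the diet and Me1 for the vector were kept, and those of Me3 in both, and of Pcx (0.0908) and Me2 (0.0676, adjusted p) for the vector, were lost.

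In HFD+AAV-BCKDK against ND+AAV-CON hearts, Pdp1, Pcx and Idh1 were lower, and the other 30 genes were not called. Pdp1 was at -0.79 (SE 0.10, adjusted p = 0.00914), Pcx at -0.58 (SE 0.12, adjusted p = 0.0429) and Idh1 at -0.56 (SE 0.11, adjusted p = 0.0362). The sign of all 3 was negative under every scaling, though with cardiomyocyte-marker scaling none of them was called. HFD+AAV-CON replicate 3 enters this comparison only through scaling, filtering and the shared estimate of the spread, and without it Pcx (0.0917) and Idh1 (0.0828) missed the threshold and Pdp1 stayed under it. Pcx and Idh1 also missed it when any 1 library of either group was left out, and Pdp1 without ND+AAV-CON replicate 1 (adjusted p = 0.0518). Me1 was at 0.50 (SE 0.15, adjusted p = 0.118) and Pdp2 at -0.64 (SE 0.25, adjusted p = 0.22), neither of them called. With the 2 groups fitted alone, both were called, at adjusted p between 0.0049 and 0.0138. The median of the 33 genes in this comparison was -0.06, against -0.03 over all genes tested.

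Ratios of 2 genes inside 1 library do not depend on the scaling, and 10 pairs were compared in all 3 comparisons with a two-sided exact permutation test. With 3 libraries against 3 the smallest p is 0.1, and over the 30 tests the smallest adjusted p was 0.214, so none could pass the threshold and the values are given for their size and overlap. Pdk3/Pdk2 averaged -7.16 ± 0.33 in HFD+AAV-BCKDK, -4.99 ± 0.85 in HFD+AAV-CON and -7.09 ± 0.22 in ND+AAV-CON on the log2 scale (SD, n = 3 each). Pdp1/Pdp2 averaged 0.51 ± 0.15, 1.40 ± 0.50 and 0.65 ± 0.15 in the same groups. In both pairs every HFD+AAV-CON library was above all others, and HFD+AAV-BCKDK and ND+AAV-CON overlapped. Acly/Cs had that pattern too, at -4.91 ± 0.08 in HFD+AAV-BCKDK, -4.11 ± 0.48 in HFD+AAV-CON and -4.97 ± 0.09 in ND+AAV-CON.

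Other pairs set both HFD groups or the vector group apart. Me1/Me3 averaged 1.58 ± 0.04 in HFD+AAV-BCKDK, 1.498 ± 0.22 in HFD+AAV-CON and 1.11 ± 0.03 in ND+AAV-CON, and Pdk1/Pdk2 averaged -0.997 ± 0.06, -0.80 ± 0.26 and -1.34 ± 0.05. In these pairs both HFD groups lay above ND+AAV-CON with no overlap. Idh1/Idh2 averaged -5.42 ± 0.10 in HFD+AAV-BCKDK, -4.75 ± 0.36 in HFD+AAV-CON and -4.89 ± 0.14 in ND+AAV-CON, and Pcx/Pdha1 averaged -6.22 ± 0.12, -5.82 ± 0.16 and -5.64 ± 0.17. Here HFD+AAV-BCKDK lay below both other groups with no overlap. The cytosolic and mitochondrial transaminases (Got1/Got2), the malate dehydrogenases (Mdh1/Mdh2) and the succinate-CoA ligase subunits (Sucla2/Suclg2) overlapped in every comparison, with differences between -0.12 and 0.02.

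**Figure D4:**
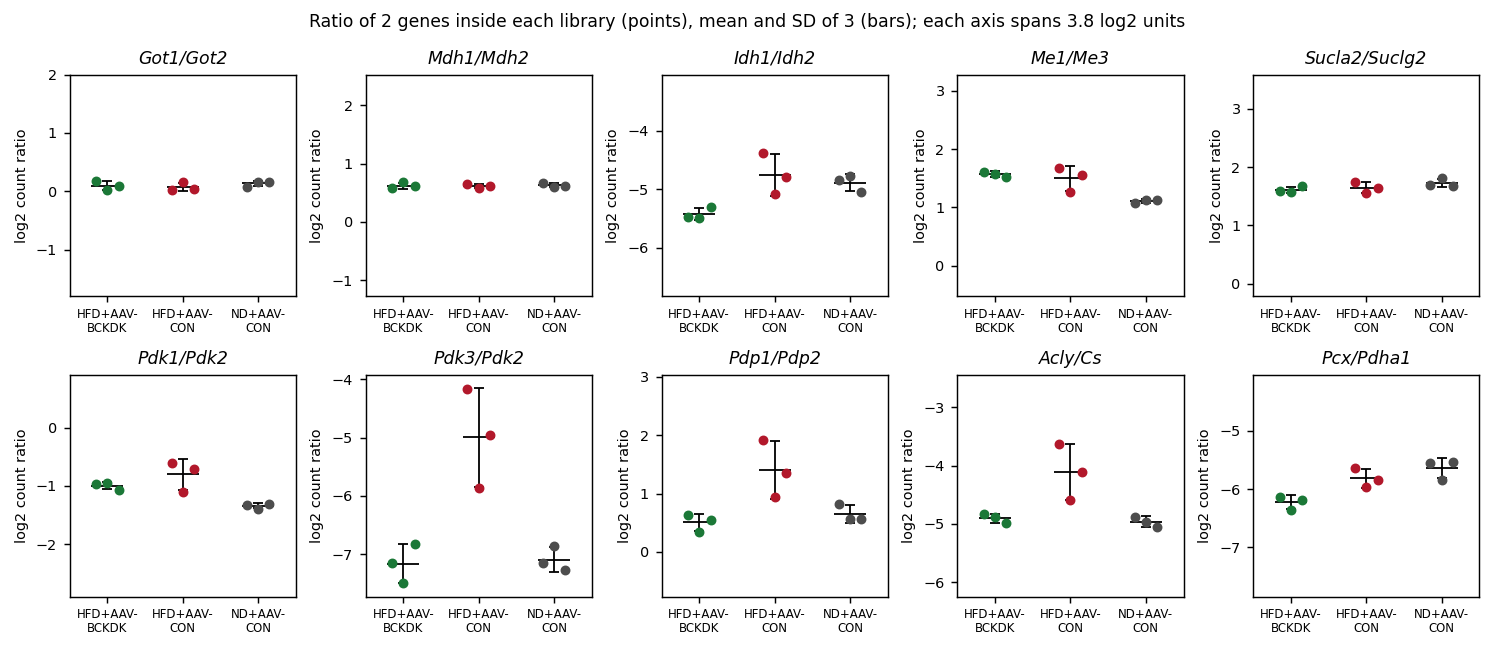
Log2 ratio of the counts of 2 genes inside each library (points) for 10 pairs, in HFD+AAV-BCKDK, HFD+AAV-CON and ND+AAV-CON, with the mean and SD of 3 libraries (bars). Every vertical axis spans the same range. Pdk3/Pdk2, Pdp1/Pdp2 and Acly/Cs are highest in HFD+AAV-CON, Me1/Me3 and Pdk1/Pdk2 are higher in both HFD groups than in ND+AAV-CON, and Got1/Got2 and Mdh1/Mdh2 overlap in all groups.

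Expressed per kilobase of exon, the levels of the 33 genes ranged widely. Mdh1 was highest at 665 CPM per kb in HFD+AAV-BCKDK, 423 in HFD+AAV-CON and 683 in ND+AAV-CON. Idh2 followed at 620.4, 352 and 630.1 CPM per kb, in the same groups, then Mdh2 at 312, 201 and 317 and Pdha1 at 292, 174 and 292. Among the kinases, Pdk2 stood at 89.04, 53.2 and 102 CPM per kb, Pdk1 at 18.2, 12.1 and 16.4, and Pdk3 at 0.781, 2.03 and 0.934. Pdk3 thus remained far below the other kinases even in HFD+AAV-CON. Me1 stood at 53.95, 31.4 and 38.1 CPM per kb, Me3 at 4.76, 3.02 and 4.64 and Me2 at 1.04, 1.52 and 1.31. Of the 33 genes, 7 overlap an exon of a gene on the other strand, and since the use of strand in counting is not given, reads of such partners cannot be told apart. The 3 partners in the table averaged 592 (Nop56, beside Idh3b), 86.7 (Wdpcp, beside Mdh1) and 60.7 reads (Map3k15, beside Pdha1), against 20921, 57092 and 35579 for the genes themselves.

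Other genes of the same pathways moved in the same directions. Of 27, 21 fell and none rose under the diet, where 20.6% of all genes tested fell and 22.7% rose. With the vector 18 rose and 1 fell, where 17.3% of all genes tested rose and 20.9% fell. In HFD+AAV-BCKDK against ND+AAV-CON 1 of the 27 fell, where 1.27% of all genes tested did. The medians of the 27 were -0.76, 0.53 and -0.16. Pdk4, the starvation-induced kinase of heart and muscle and the most abundant of its family here, was measured at 1560, 1868 and 2321 CPM in the HFD+AAV-BCKDK hearts, 709, 1351 and 955 CPM in the HFD+AAV-CON hearts and 3660, 3369 and 3384 CPM in the ND+AAV-CON hearts. Its libraries were apart in all 3 groups. It fell by 1.79 (SE 0.24, adjusted p = 0.000875), rose by 0.93 (SE 0.23, adjusted p = 0.0148) and was at -0.86 in HFD+AAV-BCKDK against ND+AAV-CON without a call (adjusted p = 0.0981). The aspartate-glutamate carriers of the shuttle, Slc25a12 and Slc25a13, fell by 0.60 and 1.03 and rose by 0.53 and 0.47, and with cardiomyocyte-marker scaling Slc25a12 turned its sign in both comparisons (0.09 and -0.03) and Slc25a13 in the second (-0.11). Slc25a13 was the gene that fell against ND+AAV-CON (-0.57, SE 0.12, adjusted p = 0.0434), with 87.1, 83.4 and 78.9 CPM in HFD+AAV-BCKDK and 116, 133 and 121 CPM in ND+AAV-CON.

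Dld, the dehydrogenase subunit shared by the ketoacid complexes, changed by -0.79 and 0.71, and Sdha, the flavoprotein of succinate dehydrogenase, by -0.68 and 0.76, with no change of sign under any scaling. With cardiomyocyte-marker scaling Dld was at -0.10 (adjusted p = 0.364) and 0.16 (adjusted p = 0.188), and neither was called, and Sdha was at -0.02 for the diet (adjusted p = 0.864) and was not called. Slc25a1, the citrate exporter, was the gene that fell with the vector (-0.85, SE 0.18, adjusted p = 0.00828), with 3.86, 4.59 and 5.27 CPM in HFD+AAV-BCKDK and 9.96, 6.65 and 8.06 CPM in HFD+AAV-CON. Of the lactate dehydrogenase subunits, the heart form Ldhb changed by -1.005 (SE 0.23, adjusted p = 0.00855) and 0.79 (SE 0.23, adjusted p = 0.0261). The muscle form Ldha was called in no comparison, at -0.10 and 0.18, though with cardiomyocyte-marker scaling it was 0.61 and -0.40 and with total-count scaling 0.28 and -0.26. Without HFD+AAV-CON replicate 3 the calls of Sdha in both comparisons, and of Ldhb (0.0802) and Pdk4 (0.0526, adjusted p) for the vector were lost, as was that of Slc25a13 in HFD+AAV-BCKDK against ND+AAV-CON (0.0952).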

How the data were processed

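Gene-level read counts of 9 left-ventricle libraries were used as the authors deposited them, as whole numbers that were not normalized. The reads were aligned to mm10 with HISAT2 2.0.5, per the submitters' processing notes. Which counting tool, annotation and strand setting followed is not stated in the labels. The table held 26178 entries, of which 4142 unnamed loci were left out and 22036 annotated genes were kept. The labels number the replicates without tying them to animals, so p-values measure the spread between these libraries. Genes with low counts were removed with filterByExpr (minimum count 10), libraries were scaled by TMM, and 1 edgeR 4.0.16 quasi-likelihood fit of all 9 libraries (R 4.3.3) gave the 3 comparisons, with Benjamini-Hochberg adjustment over 14160 genes at 0.05. The fit was checked on simulated counts first. These gave all groups the same spread, with raised and lowered genes in equal number. The check therefore does not cover the wider spread of the HFD+AAV-CON libraries. CPM per kb used exon lengths of the GENCODE annotation of GRCm38. Alternatives included other scalings, DESeq2 1.42.0, limma-voom (limma 3.58.1), other filters, a replicate block and each library left out. In each role, values in every library are given for the up to 3 genes with the smallest diet or vector p, for any called against most of the list, and for any called in HFD+AAV-BCKDK over ND+AAV-CON. The others are given by range. The 33 genes and all lists were chosen with earlier results of these data known. Nnt was left out of the lists because it has 2 overlapping entries. One other gene of these pathways is not reported here.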

Additional observations from a re-analysis of the deposited data

How the results depend on the processing

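Of the alternatives for single genes, RLE and upper-quartile scaling turned the sign of none of the 33 genes called, and the reversals below came with total-count or cardiomyocyte-marker scaling. In HFD+AAV-CON against ND+AAV-CON, 28 of the 33 fell and 1 rose. The number that rose was 3 with total-count and 5 with marker scaling, and the number that fell was 3 with marker scaling and 12 at a false discovery rate of 0.01. Of all 14160 genes tested, 5985 rose with total-count and 9056 with marker scaling, and 269 fell with marker scaling and 1314 at that rate. Leaving out 1 library gave 16 to 29 that fell and 1 to 2 that rose, with 18 without ND+AAV-CON replicate 2 and 16 without HFD+AAV-CON replicate 3. Of the 14240 to 14431 genes tested in those fits, 1724 to 3689 fell and 2326 to 3636 rose. In HFD+AAV-BCKDK against HFD+AAV-CON, the 26 that rose became 14 with total-count and 2 with marker scaling, 13 with the 2 groups fitted alone and 4 at a false discovery rate of 0.01, and the 2 that fell became 4, 5 and 1 with total-count scaling, marker scaling and that rate. Over all genes tested, 398 rose with total-count scaling, 188 with marker scaling, 1491 with the 2 groups alone and 497 at that rate. With total-count scaling, marker scaling and that rate, 6867, 7714 and 1561 fell. Leaving out 1 library gave 8 to 28 that rose and 1 to 2 that fell, with 8 without HFD+AAV-CON replicate 3 and 9, 10 and 20 without HFD+AAV-BCKDK replicates 1, 2 and 3. Over all genes tested in those fits, 984 to 3555 rose and 1863 to 3423 fell. In HFD+AAV-BCKDK against ND+AAV-CON, the 3 that fell became 0 with marker scaling and 1 at a rate of 0.01, 1 rose (Me1) with total-count scaling, marker scaling, DESeq2 or the 2 groups alone, and leaving out 1 library gave 0 to 4 that fell and 0 to 1 that rose, with 0 that fell without ND+AAV-CON replicate 1. Over all genes tested, 31 fell with marker scaling and 29 at that rate. In the same order of settings, 51, 84, 471 and 464 rose. Leaving out 1 library gave 19 to 319 that fell and 24 to 425 that rose over all genes tested. The cause of these changes was not tested.

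Log2 values that turned sign with marker scaling in HFD+AAV-CON over ND+AAV-CON were Slc25a12 0.0937, Ldha 0.61, Bckdk 0.14, Pdhx 0.0786, Pdk1 0.26, Idh3g 0.0553, Ogdh 0.17, Dlst 0.091, Mdh2 0.0145, Got1 0.00156, Got2 0.0621, Me1 0.41, Me3 0.0343 and Aco1 0.70, and with total-count scaling Ldha 0.28, Me1 0.0853 and Aco1 0.35. In HFD+AAV-BCKDK over HFD+AAV-CON they were, with marker scaling, Slc25a12 -0.0275, Slc25a13 -0.11, Ldha -0.40, Pdhx -0.0834, Pdp1 -0.42, Got1 -0.011, Got2 -0.0381, Pcx -0.22 and Idh1 -0.37, and with total-count scaling Ldha -0.26, Pdp1 -0.28, Pcx -0.0707 and Idh1 -0.23. Ratios that turned sign when 1 library was left out ranged, in HFD+AAV-BCKDK over HFD+AAV-CON, from -0.0181 to 0.0651 for Got1/Got2, -0.013 to 0.0384 for Mdh1/Mdh2, -0.0438 to 0.17 for Me1/Me3 and -0.0824 to 0.00945 for Sucla2/Suclg2. Over ND+AAV-CON, HFD+AAV-BCKDK ranged from -0.0787 to 0.00416 for Got1/Got2, -0.0386 to 0.0128 for Mdh1/Mdh2 and -0.231 to 0.0971 for Pdk3/Pdk2, and HFD+AAV-CON from -0.0501 to 0.305 for Idh1/Idh2.

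Whether the replicate numbers pair samples is not stated in the labels. Correlations of deviations from the group means ran from -0.28 to 0.25 for libraries of the same number. For libraries of different numbers they ran from -0.28 to 0.30. With 3 libraries a group these values cannot show that a pairing is absent. With the replicate block, Ogdh (adjusted p = 0.0587) was no longer called in the first comparison, Got1 and Pcx (0.0506 to 0.0713) in the second, and Pcx and Idh1 (0.0717 to 0.107) in the last, where the 3 genes that fell became 1. Of all 14160 genes tested, 50 fell in the last comparison with the block, against 180 without it. Pdk3 had the fewest reads of the 33, 44 in 1 library.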

Other observations

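Nnt, the nicotinamide nucleotide transhydrogenase that couples mitochondrial NADH to NADPH, has 2 entries in the table, at chr13:119335448-119408997 and chr13:119335528-119408952 (mm10), which share 3339 exon bases, the whole of the second. The share of its reads given to the first entry ran from 3.77% to 73.6% over the HFD+AAV-BCKDK libraries, from 3.21% to 69.5% over the HFD+AAV-CON libraries and from 1.93% to 66.1% over the ND+AAV-CON libraries. The shares fell into 2 sets with none between, at 1.93% to 7.43% in HFD+AAV-BCKDK replicate 2, HFD+AAV-CON replicate 1 and ND+AAV-CON replicates 1 and 3, and at 60.5% to 73.6% in the other 5 libraries. The 2 entries summed to 376, 528 and 329 CPM in the HFD+AAV-BCKDK hearts, 134, 263 and 201 CPM in the HFD+AAV-CON hearts and 386, 391 and 496 CPM in the ND+AAV-CON hearts, with the HFD+AAV-CON libraries below all others. How the counting split reads between the entries is not given in the sources used here.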
